A study of Mus musculus with 4 samples.

Results

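C-type lectins, Siglecs and galectins are proteins that bind sugars or carry a sugar-binding fold, and 66 of the 18276 genes in the expression table belong to them. The members were chosen by name: symbols starting with Clec, Cd209, Siglec, Lgals or Klr, and Ly75, Cd33, Cd69, Cd72 and Mgl2, while Mrc1 and Cd22 were left out. Within GENCODE M21 on GRCm38 the same rule, which also names Mrc2, takes 94 symbols, and the 28 others are absent from the expression table. The members were read by family: 9 genes of the Dectin-1 cluster, 9 of the Dectin-2 and DCIR cluster, 8 of the CD209 and asialoglycoprotein-receptor type, Ly75 of the mannose receptor type, 3 other C-type lectins, 23 receptors of the natural killer (NK) gene complex type, 6 Siglecs and 7 genes with galectin symbols. Chromosome 6 carries 41 of them, chromosome 7 carries 7 and chromosome 8 carries 6.

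RNA with poly(A) tails was sequenced from osteoclast progenitors of fresh mouse bone marrow, sorted for CD115 (the CSF1 receptor) and against B220, CD3 and Mac-1. All mice were of mixed B6;129 background and carried Mx-1Cre, a Cre recombinase under an interferon-inducible promoter that is not restricted to one blood cell type. The 2 Ptip_KO libraries came from mice that also had floxed Ptip alleles (Ptip flox/flox Mx-1Cre), and the 2 control libraries from WT Mx-1Cre mice. PTIP, the product of Paxip1, works in complexes that methylate lysine on histone H3. The age and sex of the mice, any inducer of Cre, and the strain of origin of a given locus are not given in the sources used here. The series text calls the replicates independent, but whether they are separate animals is not stated, so a p-value here reflects only how far these samples differ among themselves.

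C-type lectin receptors of myeloid cells read sugars of microbes, of dying cells and of the body's own proteins. Receptors such as Dectin-1 and Mincle activate cells through the kinase Syk, directly or through adaptors with an ITAM motif (FcR gamma or DAP12), whereas receptors with an ITIM motif, such as DCIR, MICL and most Siglecs, recruit phosphatases that restrain activation. Siglecs bind sialic acid, and galectins are soluble proteins that bind galactose-bearing chains. Osteoclasts form from myeloid progenitors under CSF1 and RANK ligand with ITAM adaptors as costimulators, and Clec2d was described as an osteoclast inhibitory lectin.

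The 250 bases upstream of a RefSeq transcript start are shown for the 4 members with the largest decreases past the test and for the 3 members that increased, because these are the genes on which the comparison turns. They are from RefSeq on GRCm38.p6, 5′ to 3′ on the strand of the gene. The windows are chr11:70130107-70130356 (plus strand) for Mgl2, chr8:3878500-3878749 (minus) for Cd209d, chr6:131247363-131247612 (minus) for Klra2, chr6:123049712-123049961 (plus) for Clec4b1, chr6:129045651-129045900 (plus) for Klrb1f, chr7:43660162-43660411 (minus) for Siglece and chr11:118401960-118402209 (minus) for Lgals3bp. RefSeq and GENCODE starts differ: 37 of the 63 member windows end at a GENCODE transcript start, and of those shown 133 bases of Lgals3bp, 56 of Cd209d and 28 of Mgl2 lie inside the GENCODE gene. Capitals mark matches, on either strand, to 3 cores bound by factor families of myeloid cells: the PU.1-type ETS core GAGGAA, which reads TTCCTC on the other strand, the ETS-IRF composite core GGAANNGAA, read as TTCNNTTCC, and the C/EBP core TTGCNNAA, read as TTNNGCAA.
Mgl2: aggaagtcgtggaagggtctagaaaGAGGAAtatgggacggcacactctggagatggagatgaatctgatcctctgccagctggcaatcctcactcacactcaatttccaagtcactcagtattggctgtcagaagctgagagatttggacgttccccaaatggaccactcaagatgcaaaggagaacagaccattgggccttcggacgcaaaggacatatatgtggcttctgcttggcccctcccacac
Cd209d: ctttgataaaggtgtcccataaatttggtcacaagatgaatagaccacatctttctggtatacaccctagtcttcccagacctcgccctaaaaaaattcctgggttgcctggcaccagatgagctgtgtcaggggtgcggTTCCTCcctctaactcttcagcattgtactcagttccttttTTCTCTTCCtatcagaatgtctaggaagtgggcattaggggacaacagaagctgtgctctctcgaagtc
Klra2: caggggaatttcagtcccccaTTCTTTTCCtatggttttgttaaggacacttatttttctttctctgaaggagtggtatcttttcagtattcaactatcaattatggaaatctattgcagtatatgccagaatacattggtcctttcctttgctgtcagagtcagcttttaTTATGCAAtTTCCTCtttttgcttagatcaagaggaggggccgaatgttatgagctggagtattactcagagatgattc
Clec4b1: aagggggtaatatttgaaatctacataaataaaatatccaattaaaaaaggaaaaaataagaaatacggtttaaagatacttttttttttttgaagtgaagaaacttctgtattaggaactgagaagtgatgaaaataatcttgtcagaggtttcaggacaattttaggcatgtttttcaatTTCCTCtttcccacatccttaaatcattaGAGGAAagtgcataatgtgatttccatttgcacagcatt
Klrb1f: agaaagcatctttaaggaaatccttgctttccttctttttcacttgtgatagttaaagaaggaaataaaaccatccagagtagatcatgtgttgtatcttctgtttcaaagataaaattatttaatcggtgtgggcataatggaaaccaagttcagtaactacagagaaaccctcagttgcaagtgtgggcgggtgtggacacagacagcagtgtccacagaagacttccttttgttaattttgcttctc
Siglece: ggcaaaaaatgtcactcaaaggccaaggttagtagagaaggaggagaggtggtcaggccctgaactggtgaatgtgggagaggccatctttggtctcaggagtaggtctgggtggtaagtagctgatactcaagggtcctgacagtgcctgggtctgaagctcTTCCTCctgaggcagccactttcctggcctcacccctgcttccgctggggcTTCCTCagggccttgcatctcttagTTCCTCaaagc
Lgals3bp: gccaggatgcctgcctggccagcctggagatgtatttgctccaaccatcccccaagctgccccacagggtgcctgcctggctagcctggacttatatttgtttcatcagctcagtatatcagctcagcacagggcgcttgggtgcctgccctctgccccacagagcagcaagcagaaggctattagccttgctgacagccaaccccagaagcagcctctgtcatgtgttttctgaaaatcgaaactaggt

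Matches to the first 2 cores can share bases, since both hold GGAA. Klra2 held 1 match to each of the 3 cores, Cd209d held 1 ETS and 1 ETS-IRF match, Clec4b1 held 2 ETS matches and Mgl2 held 1. Siglece, which increased, held 3 ETS matches, while Klrb1f and Lgals3bp held none of the 3 cores. RefSeq windows were at hand for 54 of the 66 members (63 windows), including all 12 members that passed the test below. The ETS core was in 55.6% of the member windows, 61.5% of the 13 windows of the 12 members that passed, and 23.2% of all 32851 windows. The ETS-IRF core was in 23.8%, 15.4% and 6.99% of these sets, and the C/EBP core in 23.8%, 23.1% and 9.56%. The sets were not matched for base composition, and a match is a description of the letters, not of binding.

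Values are CPM, the reads of a gene scaled by the authors to the effective size of each library. The libraries held 67592972 to 77773478 reads, and 3 reads, the upper limit for a count of 0, came to 0.0380 to 0.0428 CPM (counting error only). Paxip1 had 3.73 to 5.10 CPM in Ptip_KO against 103 to 106 CPM in WT. WT replicate 2 stood apart from the other 3 libraries in sex-linked transcripts, with Xist at 298 CPM (0.0428 to 0.0814 in the others) and Ddx3y at 0.101 CPM (69.1 to 89.6 in the others). Csf1r, the receptor of the sort, was at 606 to 825 CPM and Cd3e at most 0.1902 CPM, but Itgam, which encodes the Mac-1 chain sorted against, was at 35.1 to 42.1 CPM in all 4 libraries.

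A gene was tested where 2 or more libraries reached 1 CPM (12357 genes), and 40 of the 66 members were among them. Fold changes are differences of log2(CPM + 1), which understate changes of low genes, and a gene is said to have risen or fallen where its limma p, adjusted over all tested genes by Benjamini-Hochberg, was under 0.05. In Ptip_KO cells 9 of the 40 tested members fell (22.5%, where 3.86% of all tested genes fell) and 3 rose (7.5%, where 2.43% rose). The 9 were Mgl2, Cd209d, Klra2, Clec4b1, Clec4a2, Siglecg, Clec4e, Clec2d and Clec12a, and the 3 were Klrb1f, Siglece and Lgals3bp. Of the 9, Cd209d and Clec4b1 passed the filter only through the WT libraries, so their direction was fixed by the filter. In 5 of the 12 the group means differed at least 2-fold. Another 28 tested members did not pass, and 16 of the 40 had an unadjusted p under 0.05.

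On the recovered reads, edgeR called the same 3 members higher (background 1.97%) and 6 of the 9 lower (background 3.37%), with Clec4a2, Clec4e and Siglecg missing the threshold. DESeq2 called 4 higher (background 6.31%), adding Lgals8, and 11 lower (background 9.11%), adding Cd33 and Clec4a3. In 17 members (42.5%) both Ptip_KO libraries lay below both WT libraries, as in 27.3% of all tested genes, and in 7 (17.5%) above, as in 27.7%. The median log2 fold change was -0.15 over the members and 0.003 over all tested genes. The direction differed by family: the medians were -1.75 for the CD209 type (4 of 4 negative), -1.01 for the Dectin-2 and DCIR cluster (6 of 6 negative), -0.32 for Siglecs (5 of 6 negative) and -0.18 for the Dectin-1 cluster (4 of 6 negative). They were 0.18 for the galectin symbols (6 of 7 positive, or 0.17 and 5 of 6 without Lgals3bp, which is named for binding a galectin), 0.20 for NK-complex receptors (5 of 7 positive) and 0.07 for the other C-type lectins (2 of 3 positive). Cd209d, Clec4b1 and the NK-complex receptor Klrd1 passed the filter through WT alone, so their negative sign followed from entry. The counts also leave out members under the filter. Of those in the CD209 type and the Dectin-2 and DCIR cluster, Cd209c, Clec4g and Clec4n had the higher mean in Ptip_KO. Cd209e, Cd209f, Clec4a4 and Clec4b2 had it in WT. The plot of fold changes shows the tested members by family.

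**Figure D1:**
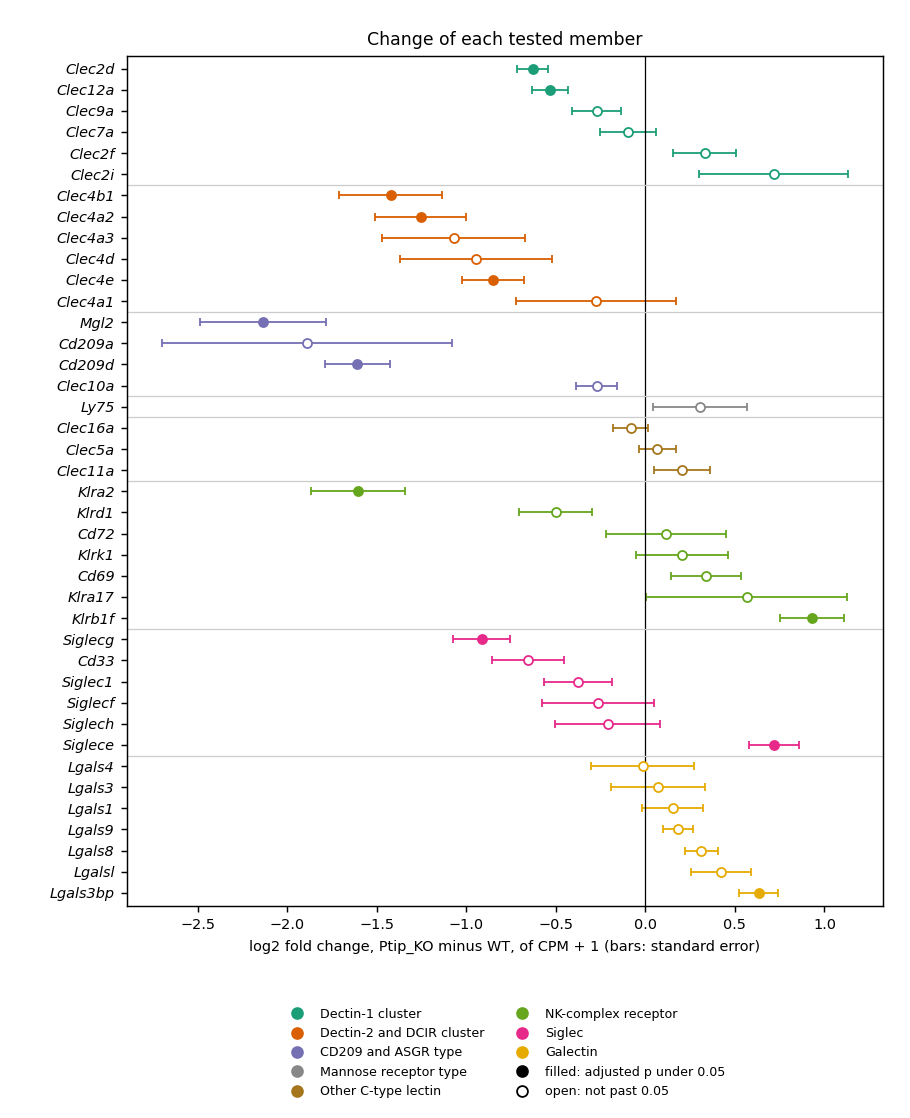
Log2 fold change of CPM + 1 (Ptip_KO minus WT, horizontal axis) of the 40 tested members, grouped by family, with bars for the limma standard error (2 libraries per group); filled points have an adjusted p under 0.05. All points of the Dectin-2 and DCIR cluster and of the CD209 type lie left of 0, from -2.14 for Mgl2 to -0.27 for Clec10a, and the highest point is Klrb1f at 0.93.

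The lectins of the CD209 and asialoglycoprotein-receptor type are endocytic receptors of macrophages and dendritic cells. Mgl2 (CD301b), which binds galactose and N-acetylgalactosamine, was at 6.12 and 4.64 CPM in Ptip_KO against 18.2 and 39.5 CPM in WT. Its group means differed 5.36-fold, and it fell by 2.14 on the log2 scale (standard error 0.351, limma adjusted p = 0.0292). Both Ptip_KO libraries lay below both WT libraries, and the WT libraries themselves differed by more than the Ptip_KO libraries did. Mgl2 lies on chromosome 11 at 70130329 to 70137550 beside Clec10a (CD301a), with which its transcripts share 97.0% identity over 697 bases, so reads could have been split between them. Clec10a was at 22.6 and 20.3 CPM in Ptip_KO against 24.5 and 27.8 CPM in WT and did not pass (log2 fold change -0.27, limma adjusted p = 0.228). Per kb of exon, Clec10a was at 8.44 and 9.59 CPM and Mgl2 at 8.68 and 18.8 CPM in WT, whereas in Ptip_KO they were at 7.78 and 7.01 CPM and at 2.92 and 2.22 CPM. The difference between their changes was not tested. The Mgl2 call was lost with a common library sum or with a robust variance prior (limma adjusted p = 0.0579 in both).

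Cd209d (SIGNR3) is one of the mouse relatives of DC-SIGN, a receptor for mannose- and fucose-bearing ligands, and lies on chromosome 8 at 3871824 to 3878555. It had 13 and 10 reads (0.171 and 0.143 CPM) in Ptip_KO and 206 and 180 reads (2.79 and 2.28 CPM) in WT. The group means differed 16.2-fold, and Cd209d fell by 1.61 on the log2(CPM + 1) scale (standard error 0.181, limma adjusted p = 0.0120). Cd209a, which marks monocyte-derived dendritic cells in the mouse, was at 17.8 and 1.98 CPM in Ptip_KO against 32.7 and 21.8 CPM in WT. Both Ptip_KO libraries were below both WT libraries but differed strongly from each other, and Cd209a did not pass (log2 fold change -1.89, standard error 0.810, limma adjusted p = 0.232). A single library set its size: the log2 fold change was -3.22 without Ptip_KO replicate 1 (limma adjusted p = 0.000841) and -0.56 without Ptip_KO replicate 2 (0.323). Here and below, leaving out a library leaves an arm of 1 sample, which is assumed to vary like the other group. The low copies Cd209e (3 and 0 reads in Ptip_KO, 50 and 39 in WT) and Cd209f (0 and 0 reads against 4 and 10) were under the filter and were not tested. Cd209c and Clec4g were also under it, with 36 to 161 and 20 to 28 reads.

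**Figure D2:**
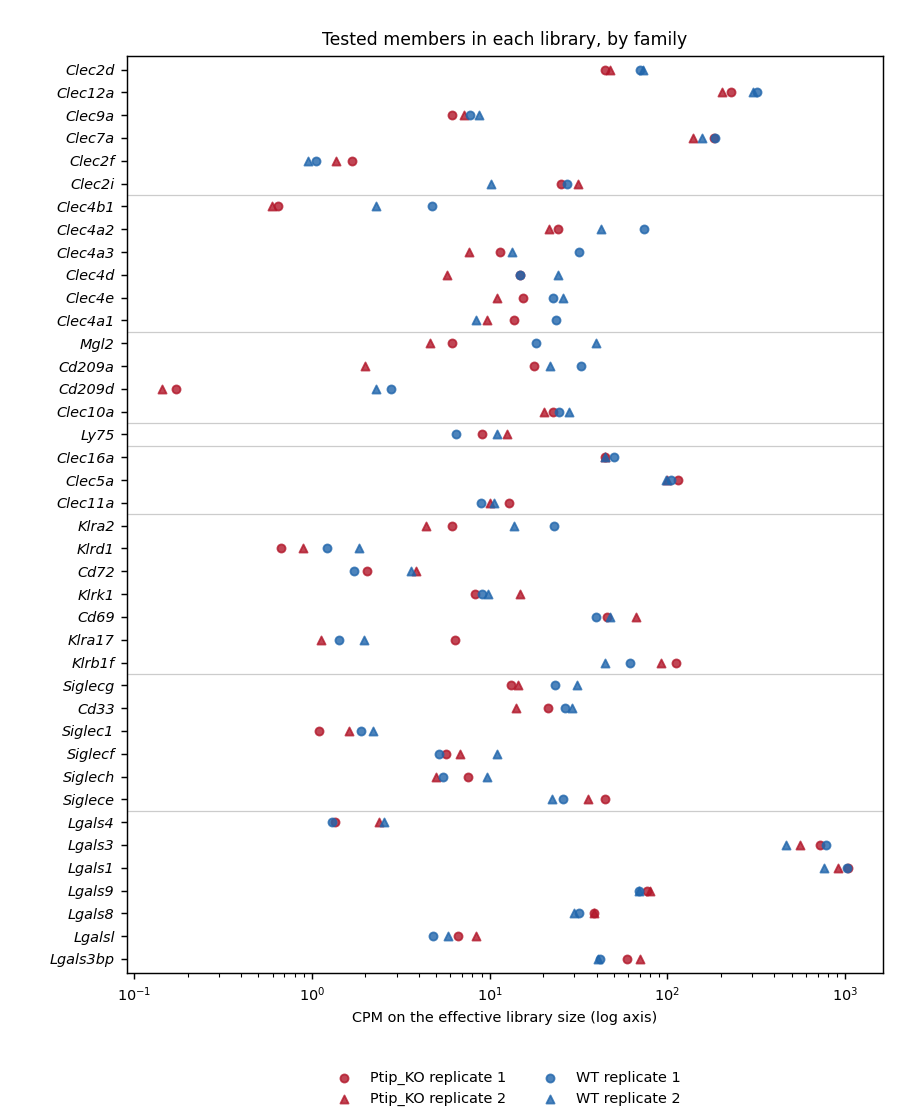
CPM on the effective library size (log axis) of the 40 tested members in each of the 4 libraries, with one marker per library (red Ptip_KO, blue WT). The groups stand apart for Mgl2, Cd209d, Klra2, Clec4b1 and Clec4a2 (red to the left), whereas for Cd209a and Klra17 the 2 red points are far from each other.

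The Dectin-2 and DCIR cluster holds 9 members in one stretch of chromosome 6 (122921848 to 123289870), among them activating receptors that pair with FcR gamma and inhibitory DCIR receptors with an ITIM. Of the 6 tested members 3 fell and none rose, where 3.86% of all tested genes fell and 2.43% rose. One of the 3, Clec4b1, passed the filter only through the WT libraries, so its direction was fixed by the filter. The inhibitory receptor Clec4a2 (DCIR) was at 24.3 and 21.5 CPM in Ptip_KO against 74.2 and 42.3 CPM in WT, and fell by 1.26 on the log2 scale (standard error 0.256, limma adjusted p = 0.0498). Clec4b1 (DCAR), an activating receptor, was at 0.644 and 0.599 CPM in Ptip_KO against 4.76 and 2.28 CPM in WT, and fell by 1.42 (standard error 0.288, limma adjusted p = 0.0484). Clec4e (Mincle), an activating receptor for mycobacterial glycolipids and for products of dead cells, was at 15.3 and 11.02 CPM in Ptip_KO against 22.8 and 25.8 CPM in WT, and fell by 0.85 (standard error 0.172, limma adjusted p = 0.0482). In each of the 3 genes both Ptip_KO libraries lay below both WT libraries, as in 27.3% of all tested genes.

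The 3 calls lie close to the threshold. Rescaling the libraries to a common sum ended all 3 (limma adjusted p = 0.0604 for Clec4a2, 0.0630 for Clec4b1 and 0.0742 for Clec4e), and leaving out Ptip_KO replicate 2 also did (0.0735, 0.0937 and 0.124). A pseudocount of 5 ended those of Clec4a2 and Clec4b1 (0.0581 and 0.0771). Clec4a2 and Clec4b1 share 96.3% identity over 436 bases of transcript, so their counts may be split or exchanged.

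Clec4d (MCL), the partner of Mincle, was at 14.7 and 5.77 CPM in Ptip_KO against 14.8 and 24.1 CPM in WT, where the higher Ptip_KO library lay just under the lower WT library (limma adjusted p = 0.249). Clec4a3 (DCIR3) was at 11.4 and 7.66 CPM in Ptip_KO against 31.9 and 13.4 CPM in WT, with a log2 fold change of -1.07 (limma adjusted p = 0.182, edgeR 0.160, DESeq2 0.0128). It was -0.48 without WT replicate 1 (limma adjusted p = 0.198) and -1.67 without WT replicate 2 (0.000375). Clec4a1 (DCIR4) was at 13.8 and 9.63 CPM in Ptip_KO against 23.5 and 8.41 CPM in WT, so that its groups overlapped. The log2 fold change of Clec4d ranged from -1.56 without Ptip_KO replicate 1 (0.0227) to -0.34 without Ptip_KO replicate 2 (0.673). WT replicate 1 was the higher WT library for Clec4a1, Clec4a2, Clec4a3 and Clec4b1, and the lower one for Clec4d and Clec4e. Clec4n (Dectin-2), Clec4b2 and Clec4a4 were under the filter, with 36 to 59, 26 to 87 and 1 to 13 reads per library.

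**Figure D3:**
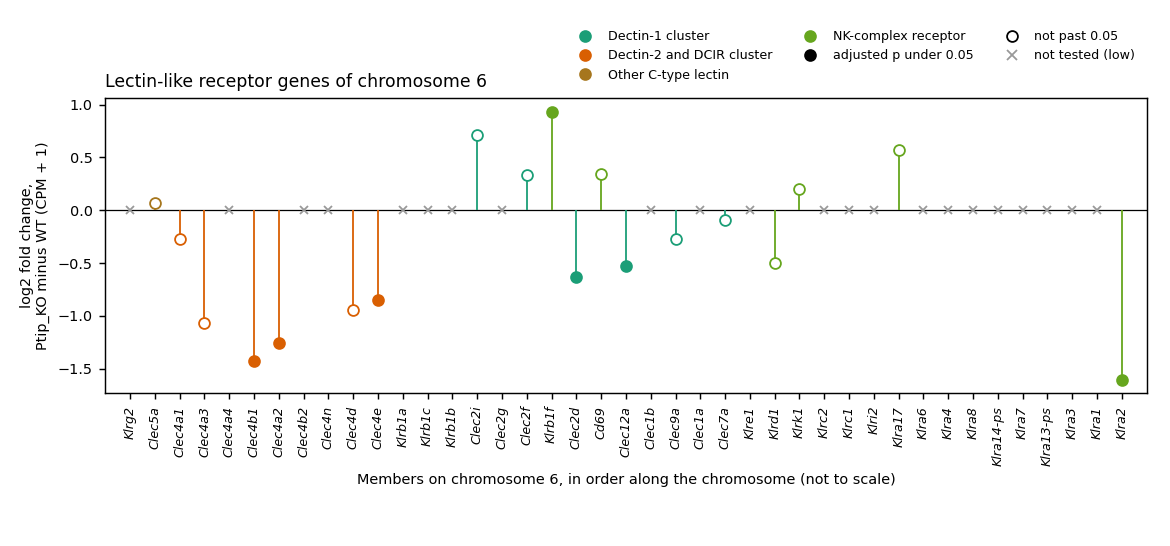
Log2 fold change of CPM + 1 (Ptip_KO minus WT, vertical axis) of the 41 members on chromosome 6, placed in their order along the chromosome and not to scale; crosses mark members under the filter. The 6 tested genes from Clec4a1 to Clec4e all lie below 0, while genes of the NK complex lie on both sides, from 0.93 for Klrb1f to -1.60 for Klra2.

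Farther along chromosome 6, 30 members lie between 128609227 and 131247362 in the NK gene complex, where receptors and their Clec2 ligands are interleaved. Of the 12 tested there 1 rose and 3 fell, where 2.43% of all tested genes rose and 3.86% fell. Clec2d (Clr-b, the osteoclast inhibitory lectin), a ligand of the inhibitory receptor NKR-P1B, was at 44.7 and 47.4 CPM in Ptip_KO against 70.3 and 73.2 CPM in WT. The libraries of each group were close to one another and far from those of the other, and Clec2d fell by 0.63 on the log2 scale (standard error 0.0871, limma adjusted p = 0.0197). Clec12a (MICL), an ITIM receptor that senses uric acid crystals, was at 229 and 202 CPM in Ptip_KO against 318 and 304 CPM in WT, and fell by 0.53 (standard error 0.100, limma adjusted p = 0.0426). The 2 calls were lost without Ptip_KO replicate 1 (0.0917 and 0.0936) and without Ptip_KO replicate 2 (0.0547 and 0.247).

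Clec7a (Dectin-1), the receptor for fungal beta-glucan, was at 182 and 140 CPM in Ptip_KO against 186 and 157 CPM in WT, with overlapping groups (log2 fold change -0.10, limma adjusted p = 0.758). GENCODE M21 lists Clec7a as a polymorphic pseudogene, and the strain of origin of the locus in these mixed-background mice is not known. Clec2i (Clr-g), the ligand of NKR-P1F, was at 25.3 and 31.3 CPM in Ptip_KO against 27.3 and 10.1 CPM in WT, where WT replicate 2 was the low library (limma adjusted p = 0.370). The log2 fold change of Clec2i was 1.39 without WT replicate 1 (limma adjusted p = 0.000330) and 0.04 without WT replicate 2 (0.875). Clec9a (DNGR-1), a receptor of cross-presenting dendritic cells, was at 6.16 and 7.12 CPM in Ptip_KO against 7.79 and 8.66 CPM in WT and did not pass (limma adjusted p = 0.296), and it shares exon sequence with Clec1b on the same strand. Clec2f did not pass either, and Clec1a, Clec1b and Clec2g were under the filter.

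Among the NK-complex receptors, Klrb1f (NKR-P1F), the receptor for Clec2i, rose while Klra2 fell. Klrb1f, on chromosome 6 at 129045901 to 129057464, was at 112 and 91.9 CPM in Ptip_KO against 61.9 and 44.6 CPM in WT, with a log2 fold change of 0.93 (standard error 0.179, limma adjusted p = 0.0435). Klra2 (Ly49B), an ITIM receptor of the Ly49 family that is found on myeloid cells, lies at 131219223 to 131247362. It was at 6.11 and 4.37 CPM in Ptip_KO against 22.9 and 13.7 CPM in WT, and fell by 1.60 (standard error 0.264, limma adjusted p = 0.0292), a 3.50-fold difference of the means. Neither gene had a near-identical copy at 95% identity. The call for Klra2 held in all 14 alternatives, and that for Klrb1f in 13 of 14. The exception was the fit without Ptip_KO replicate 1 (log2 fold change of Klrb1f 0.79). The alternatives without a WT library say nothing of stability, since their spread came from the Ptip_KO pair alone.

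Klra17 (Ly49Q), the other Ly49 receptor of myeloid and plasmacytoid cells, was at 6.41 and 1.13 CPM in Ptip_KO against 1.42 and 1.97 CPM in WT, so that 1 Ptip_KO library was the highest and the other the lowest of the 4 (limma adjusted p = 0.597). Cd69, an early activation marker, was at 45.4 and 66.7 CPM in Ptip_KO against 39.7 and 47.3 CPM in WT (limma adjusted p = 0.363). Klrk1 (NKG2D), which signals through DAP10, was at 8.24 and 14.7 CPM in Ptip_KO against 9.10 and 9.83 CPM in WT (limma adjusted p = 0.681). All 3 had overlapping groups. Klrd1 (CD94), at 0.670 and 0.885 CPM in Ptip_KO against 1.22 and 1.84 CPM in WT, and Cd72, a B cell inhibitory receptor outside the complex at 1.72 to 3.84 CPM, did not pass either.

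The other 16 NK-complex receptors were under the filter, among them 8 of the 10 Ly49 (Klra) genes. Klra7 had 1 and 3 reads in Ptip_KO and 11 and 14 in WT, Klra8 had 1 and 1 against 2 and 18, and Klra6 was seen only as 10 reads in WT replicate 2. The pseudogenes Klra13-ps (0 and 0 reads against 6 and 11) and Klra14-ps (0 and 1 against 6 and 10) are over 95% identical to Klra7 and Klra8, so these few reads cannot be assigned with certainty. Klrc1 (NKG2A) had 1 and 11 reads in Ptip_KO and 28 and 17 in WT, Klrc2, of 98.9% identity to it, had 0 and 3 against 5 and 10, Klre1 had 2 and 7 against 11 and 23, and Klra4 had 3 and 0 against 2 and 13. NK cells themselves were hardly seen: of 8 NK markers, Ncr1, Prf1, Gzma, Gzmb, Eomes and Tbx21 were under 1 CPM in all 4 libraries, the summed list was at 35.0 and 52.4 CPM in Ptip_KO against 52.5 and 73.3 CPM in WT, and Nkg7 alone gave 33.5 to 66.4 CPM of it. The summed T cell list was at 1.16 to 4.86 CPM. Whether the low NK-complex reads moved with the few NK cells was not tested.

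The Siglecs moved in both directions. Siglece (Siglec-E), an inhibitory receptor of mouse myeloid cells, lies on chromosome 7 at 43651070 to 43660161 and was at 44.6 and 35.9 CPM in Ptip_KO against 25.7 and 22.3 CPM in WT. It rose by 0.72 on the log2 scale (standard error 0.139, limma adjusted p = 0.0447), and the groups did not overlap. Siglecg (Siglec-G), an inhibitory receptor of B-1 cells and dendritic cells on the same chromosome at 43408204 to 43418358, was at 13.1 and 14.4 CPM in Ptip_KO against 23.2 and 31.0 CPM in WT. It fell by 0.92 (standard error 0.159, limma adjusted p = 0.0333; edgeR adjusted p = 0.0517). Both calls were lost without Ptip_KO replicate 1 (limma adjusted p = 0.157 for Siglece and 0.0797 for Siglecg), and that of Siglecg with a common sum too (0.0742). Siglecg shares 98.4% identity over 382 bases with the annotated gene Gm29791.

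Cd33, another Siglec of myeloid cells, was at 21.4 and 14.0 CPM in Ptip_KO against 26.7 and 29.1 CPM in WT (log2 fold change -0.66, limma adjusted p = 0.123, edgeR 0.137, DESeq2 0.0301). Its groups did not overlap, and its log2 fold change was -0.95 without Ptip_KO replicate 1 (limma adjusted p = 0.0259) and -0.37 without Ptip_KO replicate 2 (0.381). Siglec1 (sialoadhesin), a macrophage receptor without a signalling motif, was at 1.09 and 1.61 CPM in Ptip_KO against 1.89 and 2.19 CPM in WT (limma adjusted p = 0.297). Siglecf, known from eosinophils, was at 5.66 and 6.78 CPM in Ptip_KO against 5.21 and 11.02 CPM in WT, and Siglech, known from plasmacytoid dendritic cells, at 7.59 and 4.98 CPM in Ptip_KO against 5.43 and 9.69 CPM in WT. Both overlapped between the groups.

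Lgals1 and Lgals3 held the highest levels of the members. Per kb of exon, Lgals1 (galectin-1) was at 840 to 1155 CPM per kb and Lgals3 (galectin-3) at 251 to 421, without overlap over the 4 libraries. In WT, Clec7a at 59.4 and 70.6 CPM per kb came next and overlapped Clec2d at 58.0 and 60.4, Clec12a at 55.0 and 57.5 stood just under it, and Lgals9 followed at 32.2 and 32.4. In Ptip_KO, Clec7a at 53.1 and 69.0 overlapped Klrb1f at 45.4 and 55.1, and Clec2d at 36.9 and 39.1, Clec12a at 36.5 and 41.4 and Lgals9 at 36.1 and 37.3 overlapped one another. In CPM, Lgals1 was at 1043 and 916 in Ptip_KO and 1020 and 758 in WT, and Lgals3 at 720 and 559 in Ptip_KO and 783 and 466 in WT, and neither passed (limma adjusted p = 0.648 and 0.908). In both genes the groups overlapped, and replicate 1 was the higher library in both groups.

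Lgals3bp, a secreted glycoprotein that binds galectin-3 and is not itself a galectin, was at 59.0 and 70.3 CPM in Ptip_KO against 41.7 and 40.8 CPM in WT. It rose by 0.63 on the log2 scale (standard error 0.111, limma adjusted p = 0.0349) and lost the call without Ptip_KO replicate 2 (limma adjusted p = 0.148). Lgals8 (galectin-8), which marks damaged endosomes, was at 38.5 and 38.5 CPM in Ptip_KO against 31.9 and 29.7 CPM in WT (limma adjusted p = 0.114, DESeq2 adjusted p = 0.0332). Lgals9 (galectin-9), a ligand of TIM-3, was at 77.2 and 79.8 CPM in Ptip_KO against 68.9 and 69.2 CPM in WT (limma adjusted p = 0.249). In Lgals8, Lgals9 and also Lgalsl (6.59 and 8.36 CPM against 4.82 and 5.81 CPM) both Ptip_KO libraries lay above both WT libraries without passing the limma threshold. The libraries lay this way in 27.7% of all tested genes. Lgals4 was at 1.30 to 2.55 CPM with overlapping groups, and Lgals8 overlaps exons of Heatr1 on the opposite strand, as Ly75 does with Gm13571 and Cd72 with Tesk1.

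The remaining C-type lectins did not pass. Ly75 (DEC-205), an endocytic receptor of dendritic cells, was at 9.04 and 12.5 CPM in Ptip_KO against 6.46 and 10.9 CPM in WT (limma adjusted p = 0.541). Clec5a (MDL-1), a DAP12-coupled receptor of monocytes, was at 114 and 99.0 CPM in Ptip_KO against 105 and 98.1 CPM in WT, a log2 fold change of 0.07 (standard error 0.104). Clec11a (osteolectin), a secreted growth factor of bone marrow, was at 12.8 and 10.05 CPM in Ptip_KO against 8.97 and 10.5 CPM in WT. Clec16a, a regulator of endosomes and mitophagy that is a lectin in name only, was at 44.8 and 44.7 CPM in Ptip_KO against 50.3 and 44.7 CPM in WT. The groups overlapped in all 4.

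Downstream signalling genes, ligand genes, and lectins and related genes outside the rule were read as 3 lists of 46 genes, together called pathway genes below. Of the 44 tested, 3 fell and none rose by limma, where 3.86% of all tested genes fell and 2.43% rose. Of the 3 that fell, 2 were in the list outside the rule and 1 was a ligand gene. Among the 44, 3 positive changes had an unadjusted limma p under 0.05, and edgeR called 0 higher. Of the 20 adaptors, kinases and phosphatases, 0 passed by limma or edgeR, 2 had an unadjusted limma p under 0.05 (Card9 upward, Malt1 downward) and DESeq2 called 1, Malt1 (median log2 fold change of the list -0.06). For the adaptors themselves, the DAP12 gene Tyrobp was at 840 and 672 CPM in Ptip_KO against 672 and 522 CPM in WT (limma adjusted p = 0.297), Fcer1g, which encodes FcR gamma, at 278 and 229 CPM against 347 and 266 CPM (0.382), and Syk at 430 and 385 CPM against 405 and 372 CPM (0.744). Of 16 genes that make sialic acid and galactose ligands, the sialyltransferase St3gal6 fell by 1.16 on the log2 scale (1.26 and 1.64 CPM against 4.18 and 4.76 CPM, limma adjusted p = 0.0218). Of 8 tested lectins and related genes outside the rule, the mannose receptor Mrc1 fell by 1.38 (3.66 and 4.80 CPM against 11.4 and 13.7 CPM, limma adjusted p = 0.0143), and the Siglec Cd22 fell by 1.24 (2.86 and 2.35 CPM against 5.87 and 9.48 CPM, limma adjusted p = 0.0411). With the replicate number as a block the counts were 6 lower and 3 higher (1030 and 691 of all 12357 tested genes). By DESeq2 they were 7 lower and 1 higher, where 9.11% and 6.31% of all tested genes were called.

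**Figure D4:**
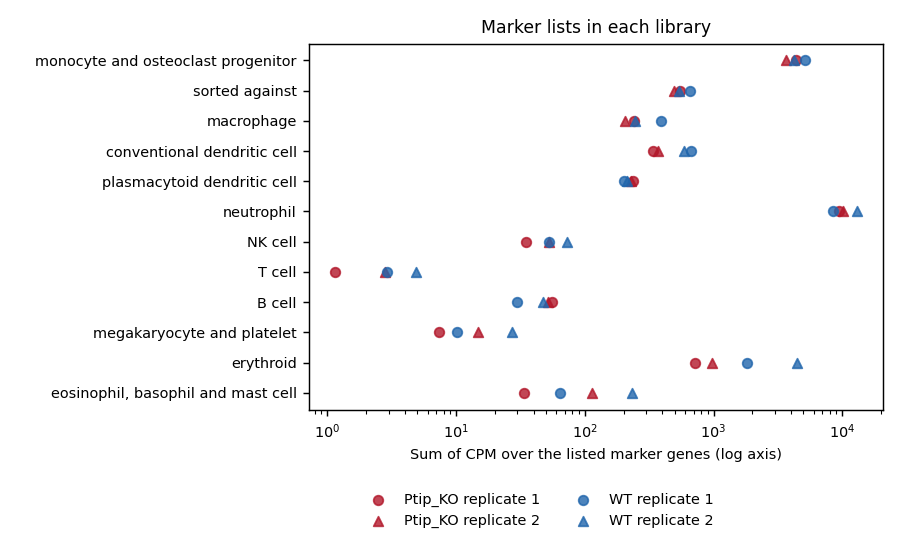
Sum of CPM over each marker list (log axis) in the 4 libraries (red Ptip_KO, blue WT; circle replicate 1, triangle replicate 2). The sums for macrophages, conventional dendritic cells, NK cells, T cells and red cells are lower in both Ptip_KO libraries than in both WT libraries. The gap is narrow for macrophages (240 against 243 CPM), NK cells (52.4 against 52.5 CPM) and T cells (2.81 against 2.93 CPM). The T cell list is the lowest in all 4.

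Many markers of macrophages, conventional dendritic cells and red cells fell in Ptip_KO. The median log2 fold changes of these lists were -1.53, -1.56 and -1.74. Beside these and the following marker counts, 3.86% of all tested genes fell and 2.43% rose. Of 9 tested macrophage markers 6 fell: Adgre1 (F4/80) was at 8.67 and 6.79 CPM in Ptip_KO against 90.5 and 51.7 CPM in WT, C1qa, C1qb and C1qc were at 0.143 to 0.407 CPM in Ptip_KO against 3.03 to 3.79 CPM in WT, and Mrc1, already counted above among the genes outside the rule, and Cd163 were the others. C1qa, C1qb and C1qc passed the filter only through the WT libraries, so their direction was fixed by the filter. The summed macrophage list of 12 genes was at 240 and 206 CPM in Ptip_KO against 392 and 243 CPM in WT, of which Cd68, which did not pass, gave 121 to 229 CPM. Of 8 tested markers of conventional dendritic cells 7 fell, the summed list of 10 genes being at 339 and 369 CPM in Ptip_KO against 667 and 586 CPM in WT, with Itgax at 6.59 and 5.05 CPM against 17.7 and 16.5 CPM. Much of these sums was Cd24a, which fell by 0.49 on the log2 scale (234 and 258 CPM against 341 and 350 CPM). Xcr1 and Batf3 were at most 1.14 CPM. In bulk RNA fewer cells of a type and less RNA per cell cannot be told apart, and the part of these cell types in the lower Mgl2, Cd209d, Clec4a2, Clec4b1, Clec4e, Siglecg and Klra2 was not tested.

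Of 8 red cell markers 6 fell (713 and 975 CPM summed in Ptip_KO, 1820 and 4436 CPM in WT), and of 9 neutrophil markers 1 fell, Padi4. The neutrophil list had a median log2 fold change of -1.54, near the -1.53 of the macrophage list, and S100a8, S100a9 and Retnlg lay lower in both Ptip_KO libraries without passing (limma adjusted p = 0.0521, 0.0509 and 0.0727). The neutrophil sums, 9467 and 10210 CPM in Ptip_KO against 8521 and 12938 CPM in WT, were mostly Mpo (5885 to 8481 CPM), and the part of neutrophil RNA in the lower lectins was not tested. Of 7 tested plasmacytoid dendritic cell markers 1 rose, Tcf4, and the sums were 238 and 229 CPM against 200 and 213 CPM. Of 6 B cell markers 2 were tested and Cd79b rose, with sums of 56.1 and 52.0 CPM against 29.5 and 47.3 CPM. The summed lists of 6 platelet and of 6 eosinophil, basophil and mast cell markers overlapped between the groups. Within the progenitor list, Kit and Flt3 fell (log2 fold changes -1.91 and -0.90), and Csf1r, at 825 and 782 CPM in Ptip_KO against 677 and 606 CPM in WT, did not pass (limma adjusted p = 0.149). Flt3 is the same gene as in the conventional dendritic cell list and is counted in both.

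Of the 12 members that rose or fell, 6 lost the call without Ptip_KO replicate 1, 6 without Ptip_KO replicate 2, and 0 without either WT replicate. Without a WT replicate the spread came from the Ptip_KO pair alone and the calls over all genes went from 777 to 1495 and 1620, so the 12 calls kept there say nothing of their stability. Clec12a, Clec2d and Clec4b1 lost the call without each of the Ptip_KO replicates, and Cd209d, Klra2 and Mgl2 kept it in both cases.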

How the data were processed

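Per the labels' protocols, libraries were prepared from poly(A) RNA with a stranded TruSeq kit. Tools named in the submitters' processing notes are TopHat2 2.0.10, HTSeq 0.6.0 and, edgeR 3.8.6, with mm10 as build; whether counting used strand is not given in the sources used here. Each deposited value is a signal that the authors had normalized, CPM by the effective library sizes of edgeR; library sums therefore differ, and the values were tested as CPM. One WT column was matched to WT replicate 2 by the sample's description.

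In all 4 libraries 100% of values were whole reads within 0.01 read once divided by the value of 1 read. The 12357 genes that reached 1 CPM in 2 or more libraries entered a limma 3.58.1 fit (R 4.3.3) of log2(CPM + 1) on genotype alone, with a trended prior, 2-sided tests and Benjamini-Hochberg adjustment at 0.05. It called 777 genes, the edgeR 4.0.16 quasi-likelihood test on the recovered reads 660 and DESeq2 1.42.0 1906. On data simulated from these libraries (12357 genes), limma recovered 22.4% of genes changed 1.5-fold, 80.6% changed 2-fold and 97.0% changed 4-fold, with 10 false calls. The simulated spread followed its trend with expression alone, without spread particular to a gene. These shares therefore need not hold for the real genes, and a gene that was not called may still have changed. Other settings were pseudocounts of 0.25 and 5, filters at 5 CPM or none, scaling to a common sum or with median-of-ratios factors, a robust prior, a replicate block, and omission of each library in turn. The count without members that have a near-identical copy was added after seeing the data.

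Members, families and lists were chosen with earlier results of these data known. Named were members past the threshold, with at least 10 CPM in a library, or highest in their family, and members under the filter whose highest library was at least 10 times the lowest; other members, and marker and adaptor genes, were named after their values were seen. Positions and exon lengths are from GENCODE M21 (GRCm38, the assembly of mm10), where all 66 identifiers matched in version. Near-identical copies were found with BLAST 2.17.0 (95% identity or more, on 200 bases or more that cover 50% of the shorter transcript) for 16 members, and 8 members share exon sequence with another gene.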

Additional observations from a re-analysis of the deposited data

How the results depend on the processing

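Of the members, 1 to 4 were called higher and 4 to 11 lower when each library was left out in turn, against 3 and 9 with all libraries. The low ends were 1 higher without Ptip_KO replicate 1 and 4 lower without Ptip_KO replicate 2. With a common sum 4 were called lower, the calls of Mgl2 (limma adjusted p = 0.0579), Clec4a2, Clec4b1, Clec4e and Siglecg being lost. Without members that have a near-identical copy 5 were called lower. For these and the following changes the cause was not tested. The replicate numbers were checked as pairs, but 2 pairs give a single correlation (r = 0.33), which cannot show whether the numbers pair the samples; no label ties them. With the replicate block 3 members were called higher and 10 lower, and of the pathway genes 3 higher and 6 lower, against 0 and 3 without it. DESeq2 called 1 pathway gene higher and 7 lower, and leaving out libraries gave 0 to 1 higher and 1 to 7 lower. Over all genes the block called 1721, the common sum 587, and leaving out Ptip_KO replicate 1, Ptip_KO replicate 2, WT replicate 1 or WT replicate 2 called 452, 476, 1495 and 1620. The direction of 13 of the 40 tested members, none of them called, turned when a library was left out, with log2 fold changes of -0.285 to 0.091 for Clec7a, -0.97 to 0.41 for Clec4a1, -0.062 to 0.366 for Lgals1, -0.30 to 0.44 for Lgals3, -0.035 to 0.643 for Ly75, -0.18 to 0.59 for Klrk1, -0.166 to 0.0026 for Clec16a, -0.035 to 0.170 for Clec5a, -0.74 to 0.21 for Siglecf, -0.58 to 0.16 for Siglech, -0.33 to 1.47 for Klra17, -0.27 to 0.50 for Cd72 and -0.33 to 0.30 for Lgals4. The 26 members under the filter had at most 161 reads in a library, and without the filter 10 members were called lower.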
